A study of Mus musculus with 4 samples.

Results

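A set of 10 innate pattern recognition genes was followed through 4 maps of open chromatin in mouse macrophages: Tlr2, Tlr4, Tlr7, Tlr9, Myd88, Nlrp3, Nod1, Nod2, Cgas and Aim2. The 10 genes were chosen by name, with earlier results of these data known, out of 21887 protein-coding genes on chromosomes 1 to 19, X and Y. For each gene, all ATAC-seq peaks that touched the gene span plus 10 kb on each side were taken, and then those within 50 kb. In ATAC-seq the transposase Tn5 cuts accessible DNA, so a peak marks a stretch of open chromatin. The cells were bone marrow-derived macrophages of the C57BL/6 strain, grown for 5 days with 10% M-CSF, the macrophage growth factor, and 50000 cells entered each library. There were 4 groups of 1 library each. Wild-type cells were left untreated (WT untreated) or given IL-4 for 6 h at 10 ng/mL (WT IL-4). Slc6a8-/y cells were likewise untreated (KO untreated) or given the same IL-4 treatment (KO IL-4). Slc6a8, on the X chromosome, encodes the creatine transporter. IL-4 is the cytokine of alternative activation, and the series asks about creatine in the polarization of macrophages.

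Pattern recognition receptors detect microbial or misplaced molecules and start inflammation. Toll-like receptors act at the cell surface or in endosomes, and most of them signal through the adaptor Myd88 to NF-kB. The NOD proteins sense fragments of bacterial cell wall in the cytosol, Nlrp3 and Aim2 build inflammasomes that activate caspase-1, and Cgas converts cytosolic DNA into the messenger cGAMP, which activates Sting. Macrophages carry most of these sensors and use them as the first step of their response to infection.

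The deposited data are 1 peak list per library, with 9930 (WT IL-4) to 17339 (WT untreated) peaks. KO untreated had 13714 and KO IL-4 had 10443. Each peak carries the authors' score, which starts at about 50 in every list and ranks peaks only within a list. It is given below with its percentile in its own list. Read depth is unknown, and the number of peaks in a list was not corrected for it, so a missing peak says only that none was deposited there. With 1 library per group no difference can be set against replicate error, no p-value was computed, and every comparison is between libraries. The targeted gene gave no check of the labels: none of the 4 lists had a peak at Slc6a8 or within 10 kb. Values given for all 4 libraries run in the order WT untreated, WT IL-4, KO untreated, KO IL-4, unless each is named. Of 10 macrophage marker genes, 7, 4, 6 and 4 had a peak at the start, and Csf1r, the receptor for M-CSF, had none. Of 20 markers of T cells, B cells, neutrophils and dendritic cells, 3, 0, 1 and 0 had one. They were Cd2, Ms4a1 and S100a8 in WT untreated and Flt3 in KO untreated. Over all protein-coding genes, 39.3%, 28.9%, 35.8% and 29.8% had a peak at the start. The 4 of 10 macrophage markers in each IL-4 list are thus little above that share.

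Promoters that a peak covered in some libraries and not in others are shown here, each from 250 bases before to 50 bases after the start that RefSeq lists (build GRCm38.p6, whose coordinates are those of mm10). The sequences run 5′ to 3′ on the strand of the gene. RefSeq promoter entries were matched for 8 of the 10 genes, as 10 windows, since Nlrp3 and Nod1 have 2 listed starts each. Tlr4 and Tlr7 were not matched. Capitals mark matches to the motifs searched, on either strand. The PU.1 motif was searched as GAGGAAG. The SP1 motif was searched as GGGCGG. For C/EBP the letters were TTGCNNAA, where N is any base. The TATA box was read as TATAAA, and the NF-kB and ISRE motifs are given by name alone. The AP-1 motif was TGANTCA. In palindromic places both strands match. Cgas and Nod2 had a peak over this window in both WT lists and in neither KO list, and the 2 Nlrp3 windows were covered in different lists. Tlr2 was covered in KO untreated alone, and Tlr9 in WT untreated alone. The Aim2 window was covered in every list but WT IL-4.
Cgas, chr9:78443188-78443487, minus strand: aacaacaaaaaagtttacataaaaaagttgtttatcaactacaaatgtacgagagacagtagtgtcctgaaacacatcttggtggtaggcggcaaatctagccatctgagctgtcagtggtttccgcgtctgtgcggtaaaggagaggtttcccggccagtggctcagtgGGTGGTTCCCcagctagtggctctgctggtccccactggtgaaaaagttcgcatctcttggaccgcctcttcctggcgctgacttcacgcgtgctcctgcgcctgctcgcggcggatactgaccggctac
Nod2, chr8:88647097-88647396, plus strand: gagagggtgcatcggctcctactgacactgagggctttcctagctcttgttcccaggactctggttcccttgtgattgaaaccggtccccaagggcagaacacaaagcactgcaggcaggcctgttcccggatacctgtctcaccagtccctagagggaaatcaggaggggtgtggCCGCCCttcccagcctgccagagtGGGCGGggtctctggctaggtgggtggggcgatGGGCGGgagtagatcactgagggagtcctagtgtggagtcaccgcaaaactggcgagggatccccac
Nlrp3 first start, chr11:59541319-59541618, plus strand: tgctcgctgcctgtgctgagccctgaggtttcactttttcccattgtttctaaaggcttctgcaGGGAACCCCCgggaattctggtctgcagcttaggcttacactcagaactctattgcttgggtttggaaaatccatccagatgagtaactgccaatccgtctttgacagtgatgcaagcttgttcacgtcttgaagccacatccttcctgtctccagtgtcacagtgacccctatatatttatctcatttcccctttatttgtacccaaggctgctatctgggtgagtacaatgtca
Nlrp3 second start, chr11:59542436-59542735, plus strand: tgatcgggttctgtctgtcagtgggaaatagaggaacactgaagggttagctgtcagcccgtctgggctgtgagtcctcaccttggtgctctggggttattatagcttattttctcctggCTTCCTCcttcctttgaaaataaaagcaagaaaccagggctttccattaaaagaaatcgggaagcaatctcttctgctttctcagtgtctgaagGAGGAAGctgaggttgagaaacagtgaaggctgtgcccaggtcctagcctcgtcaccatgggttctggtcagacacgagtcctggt
Tlr2, chr3:83841559-83841858, minus strand: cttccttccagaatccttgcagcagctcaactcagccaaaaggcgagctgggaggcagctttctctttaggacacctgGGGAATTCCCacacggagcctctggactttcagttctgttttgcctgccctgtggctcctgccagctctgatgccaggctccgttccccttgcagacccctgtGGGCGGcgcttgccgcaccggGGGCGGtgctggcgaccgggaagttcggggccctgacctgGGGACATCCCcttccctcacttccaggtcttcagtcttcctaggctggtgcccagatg
Tlr9, chr9:106222348-106222647, plus strand: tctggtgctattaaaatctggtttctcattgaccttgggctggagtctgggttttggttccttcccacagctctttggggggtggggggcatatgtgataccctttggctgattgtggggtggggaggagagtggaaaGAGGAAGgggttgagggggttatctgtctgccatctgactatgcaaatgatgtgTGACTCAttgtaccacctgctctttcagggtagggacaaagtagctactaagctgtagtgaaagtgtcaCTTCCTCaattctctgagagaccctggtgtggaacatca
Aim2, chr1:173420354-173420653, plus strand: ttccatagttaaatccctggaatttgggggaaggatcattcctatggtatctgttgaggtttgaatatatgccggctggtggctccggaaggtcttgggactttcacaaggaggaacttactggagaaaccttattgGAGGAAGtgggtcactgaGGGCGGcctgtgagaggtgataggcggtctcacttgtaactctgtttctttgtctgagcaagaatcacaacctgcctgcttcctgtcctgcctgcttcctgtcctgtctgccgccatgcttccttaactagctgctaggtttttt

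The windows differed in the motifs they held. The Cgas window had a single match, to the NF-kB motif, and the Nod2 window had 3 matches to the SP1 motif. At Nlrp3 the first start had 1 NF-kB match and the second had 2 PU.1 matches. Tlr2 had 2 NF-kB and 2 SP1 places, and Tlr9 had 2 PU.1 matches and 1 AP-1 match. Aim2 held 1 PU.1 and 1 SP1 match. Of the windows not shown, which no peak touched in any list, Myd88 held an ISRE match, an SP1 match and 2 overlapping TATA box matches, and the 2 Nod1 windows held 1 C/EBP match and 1 SP1 match. PU.1 matches lay in 3 of the 10 windows, against 13.6% of all 32851 RefSeq promoters of this length. For NF-kB the counts were 3 of 10 and 20.7%, for SP1 5 of 10 and 35.7%, for AP-1 1 of 10 and 7.81%. For ISRE they were 1 of 10 and 3.44%, for C/EBP 1 of 10 and 10.8%, and for the TATA box 1 of 10 and 13.6%. A match is a run of letters, not evidence of a bound factor.

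**Figure D1:**
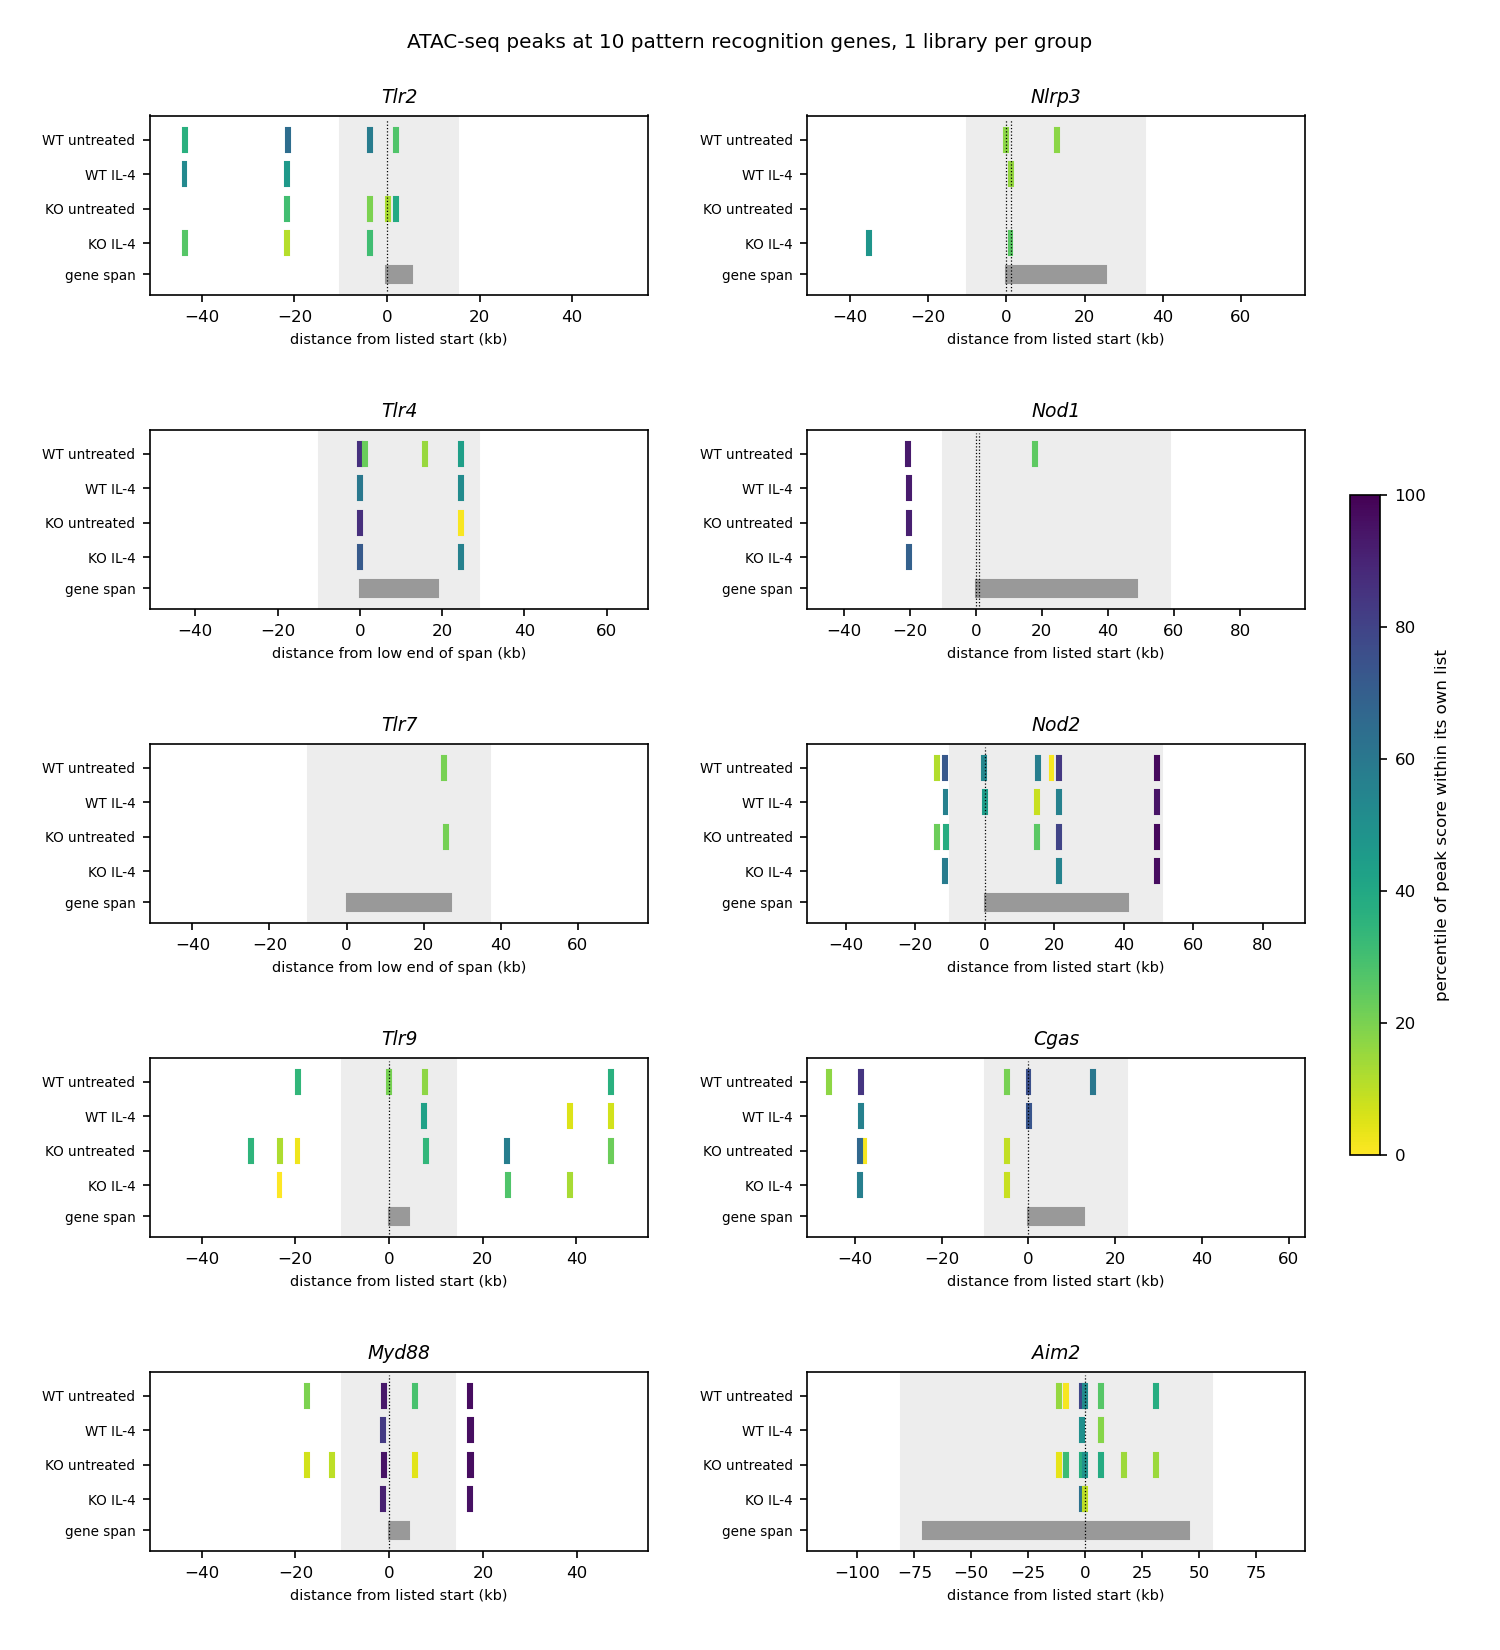
Peaks of the 4 libraries around the 10 genes, 1 panel per gene. The x axis is the distance in kb from the first listed start in the direction of the gene, or, for Tlr4 and Tlr7, from the low-coordinate end of the span; colour is the score's percentile in its own list, the grey band is the span plus 10 kb, dotted lines are listed starts, and narrow peaks are drawn at a minimum width. WT untreated has a peak inside the band at all 10 genes, and Nod1 and Tlr7 have none there in either IL-4 list.

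The untreated libraries had more peaks at these genes than the IL-4 libraries did. Within 10 kb, WT untreated had 28 peaks at 10 genes and WT IL-4 had 12 at 7 genes. KO untreated had 20 peaks at 8 genes and KO IL-4 had 10 at 7 genes. Over all protein-coding genes, 56%, 43.3%, 51.6% and 44.1% had such a peak. A start peak, within 1 kb of a listed start, was found at 7, 5, 4 and 4 of the 10 genes. The shares over all genes were 39.3%, 28.9%, 35.8% and 29.8%. For Tlr4 and Tlr7 a peak within 1 kb of a span end was counted instead. Aim2 and Nod2 held the most peaks, with 17 and 14 over the 4 lists, and Nod1 the fewest, with 1. Aim2 also has the longest span, 116494 bp.

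Merged across the 4 lists, the peaks formed 32 regions. Peaks of all 4 libraries fell in 6 of them, which is 18.75% against 35.6% of all 16642 regions within 10 kb of a protein-coding gene. These lay at Tlr4 (2 regions), Myd88, Nod2 (2 regions) and Aim2. WT untreated alone had 9 regions (28.1%, against 17.5%), and 5 were found in exactly the 2 untreated libraries (15.6%, against 10.4%). KO untreated alone had 3 (9.375%, against 7.02%). Only the WT IL-4 list lacked a further 3 regions and only the KO IL-4 list another 3, with backgrounds of 7.48% and 6.12%. Both WT lists and neither KO list had 2 regions, the starts of Cgas and Nod2 (background 2.5%). The 2 IL-4 lists shared 1 region that both untreated lists lacked, at the second Nlrp3 start (background 0.505%).

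**Figure D2:**
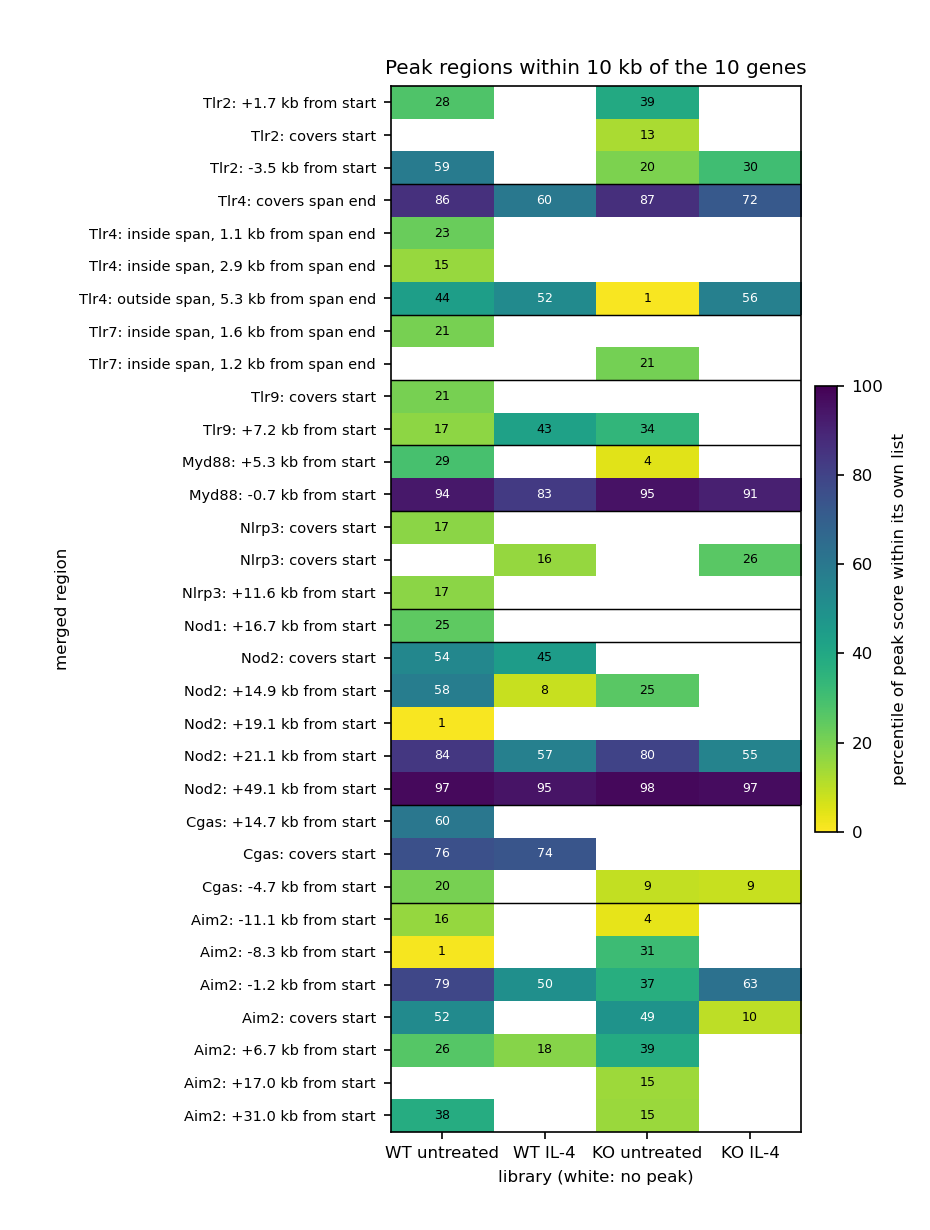
The 32 merged regions within 10 kb of the 10 genes (rows, by gene and distance from the nearest listed start in the direction of the gene, or by place in the span for Tlr4 and Tlr7) in the 4 libraries (columns). Numbers and colour give the percentile of the peak's score within its own list and white means no peak; the 6 rows filled in all 4 columns lie at Tlr4, Myd88, Nod2 and Aim2.

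Tlr2 and Tlr4 encode receptors of the cell surface, Tlr2 for bacterial lipopeptides and Tlr4 for lipopolysaccharide. At Tlr4 (chr4:66827551-66846581) a peak over the low end of the span was found in every library. Its score was 237, 98.4, 213 and 123, at percentiles 86.3, 60.0, 86.7 and 72.0. Both untreated peaks thus ranked above both IL-4 peaks within their lists. A second region shared by all 4 lay 5280 bp or more outside the other end, at chr4:66851861-66852452. Its scores were 91.0, 87.7, 50.5 and 94.1, at percentiles 43.8, 52.0, 1.09 and 56.3. The KO untreated peak there, at percentile 1.09, was among the lowest of its list. WT untreated alone had 2 further low-scoring peaks inside Tlr4, of 66.7 and 61.0.

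At Tlr2 (chr3:83836272-83841824) the lists differed in each of 3 regions. A peak over the listed start, chr3:83841230-83841743, was found in KO untreated only and had a low score, 57.2 at percentile 12.6. A region whose near edge lay at -3451 bp from the start had a peak of 118 (percentile 58.6) in WT untreated. In the KO lists its peak scored 62.0 untreated (percentile 19.9) and 67.9 with IL-4 (30.5). A region inside the gene had peaks of 71.0 in WT untreated (percentile 27.6) and 79.9 in KO untreated (39.3). WT IL-4 therefore had no Tlr2 peak within 10 kb, while KO IL-4 kept the one before the start. Further out, at -21266 bp from the start, all 4 lists had a peak. The scores were 133, 81.2, 70.5 and 55.2, at percentiles 64.5, 46.2, 30.3 and 11.2.

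Tlr7 and Tlr9 encode endosomal receptors, Tlr7 for single-stranded RNA and Tlr9 for DNA with unmethylated CpG. Both had only low-scoring peaks. Inside Tlr7 (chrX:167303380-167330574), WT untreated had a peak of 65.0 (percentile 20.7) and KO untreated one of 62.6 (20.8). They lie side by side without a shared base, the WT peak ending at 167328953 and the KO peak starting at 167328970, so each counts as found in 1 list. Neither IL-4 list had a Tlr7 peak, within 10 kb or within 50 kb. Tlr7 was the only one of the 10 genes with peaks in both untreated lists and in neither IL-4 list, a pattern of 4.31% of all genes. At Tlr9 (chr9:106222598-106226876) the start peak was found in WT untreated only (score 65.0, percentile 20.7). A second region, beyond the gene's far end, had a peak in WT untreated (62.2), WT IL-4 (77.9) and KO untreated (74.4) and none in KO IL-4. Its WT untreated and KO untreated peaks lay nearer to an end of Alas1, the gene of the first enzyme of heme synthesis, than to Tlr9.

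Myd88, the adaptor shared by most Toll-like receptors, had the highest-scoring start peak of the 10 genes. The region chr9:119340761-119341660 scored 330, 154, 311 and 206, at percentiles 93.6, 83.1, 95.3 and 91.4. Its near edge lay at -743 to -934 bp from the Myd88 start, depending on the list, and it did not reach the 300-base window there in any list. The same peaks covered an end of Acaa1a, a peroxisomal thiolase gene, so they cannot be assigned to Myd88 alone. A weak region past the other end of Myd88 was found in the untreated lists only, at 72.5 in WT and 52.2 in KO.

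Nod1 and Nod2 encode cytosolic sensors of peptidoglycan fragments that signal through the kinase Ripk2. Nod1 (chr6:54923942-54972674) had 1 peak in all, inside the gene in WT untreated (score 68.6, percentile 24.9), and no peak at either listed start in any library. At Nod2 (chr8:88647315-88688474) the start peak was found in both WT lists, at 108 untreated (percentile 53.6) and 79.6 with IL-4 (44.6), and in neither KO list. Another region inside Nod2, 21059 bp past the start, had a peak in all 4, with scores of 216, 93.5, 172 and 92.8. Its percentiles were 83.7, 56.6, 79.8 and 55.2. One more, 14906 bp past the start, had scores of 116, 53.8 and 66.1 in WT untreated, WT IL-4 and KO untreated and no peak in KO IL-4. Those scores were at percentiles 57.5, 8.39 and 25.5. The highest score near any of the 10 genes, 438.5 in WT untreated, lay within 10 kb of Nod2 but covered an end of Cyld, a deubiquitinase gene. It had a peak in every list, at percentile 94.5 or above. The KO lists thus lacked a Nod2 start peak while both had peaks inside and beyond the gene.

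Nlrp3, the inflammasome sensor of cell stress and ion loss, had a start peak at its first listed start in WT untreated and at its second in both IL-4 libraries, and none in KO untreated. The peak of WT untreated, chr11:59541236-59541729, covered the whole window of the first listed start (score 62.5, percentile 17.4). The peaks of WT IL-4 (chr11:59542399-59542952, score 58.0, percentile 16.0) and KO IL-4 (chr11:59542355-59542859, score 64.2, percentile 25.6) covered the whole window of the second start. KO untreated had no peak of any kind within 50 kb of Nlrp3. All 3 lay at percentile 25.6 or below of their lists. Of the WT untreated peaks in the same score decile 81.6% had no overlap in WT IL-4, and of the WT IL-4 peaks in that of the second start 26.7% had none in WT untreated. For the KO IL-4 peak the share without overlap in KO untreated was 33.8%. One more peak, inside the gene (62.4), was found in WT untreated only.

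Cgas and Aim2 encode sensors of cytosolic DNA. At Cgas (chr9:78430518-78443237) a start peak was found in both WT lists and in neither KO list. It scored 171 in WT untreated (percentile 75.7) and 125 in WT IL-4 (73.6), and covered 300 and 264 of the 300 bases of the window. Few peaks of that score went unmatched: in the same score decile 4.27% of WT untreated peaks had no overlap in KO untreated, and 5.44% of WT IL-4 peaks had none in KO IL-4. For the Nod2 start peaks the same shares were 24.7% and 25.8%. A region at -4674 bp from the Cgas start had low-scoring peaks in WT untreated (64.9), KO untreated (55.1) and KO IL-4 (53.8), so the KO libraries were not without peaks there. These lay nearer to an end of Mto1, a mitochondrial tRNA modification gene. Past the other end of Cgas, WT untreated alone had a peak of 122 (percentile 60.2). A start peak in both WT and neither KO list was found for 2 of the 10 genes and for 0.781% of all genes. Among genes with a start peak in any list, this was 2 of 8 members and 1.83% of all such genes. Neither share over all genes is matched for score. The reverse, a start peak in both KO lists and neither WT list, was found for 0 of the 10 genes and 0.429% of all genes. With 1 library per group, genotype and library cannot be told apart.

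Aim2 had a cluster of peaks around its listed start, within a span (chr1:173349547-173466040) that reaches far before it. The peak over the start was found in WT untreated (score 105, percentile 52.1), KO untreated (92.4, 48.8) and KO IL-4 (54.5, 9.82), and not in WT IL-4. A companion region at -1184 bp from the start was found in all 4, with scores of 185, 85.7, 77.9 and 104. The percentiles were 78.6, 50.2, 37.3 and 62.6. A region 6694 bp past the start had peaks of 69.8, 59.1 and 79.3 in WT untreated, WT IL-4 and KO untreated. Both untreated lists and neither IL-4 list had 3 further regions, 2 before the start and 1 at 31021 bp past it, with scores of 51.1 to 82.9. Another peak, of 58.4, was found in KO untreated alone. The 2 regions farthest before the start lie nearer to an end of Cadm3 than to the ends of the Aim2 span, but at over 40 kb.

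**Figure D3:**
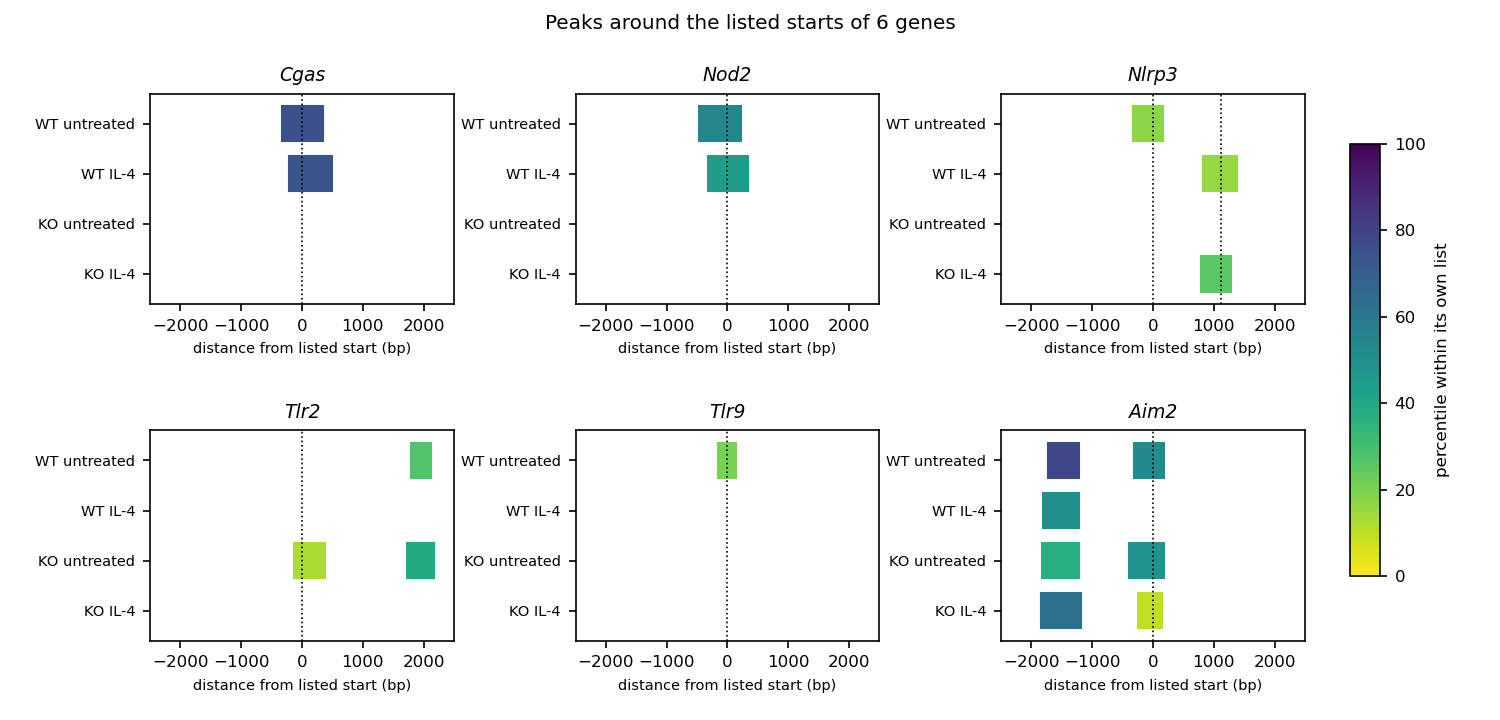
Peaks within 2.5 kb of the listed starts (dotted lines) of 6 genes in the 4 libraries, with distance in bp in the direction of the gene and colour for the score's percentile in its own list. Cgas and Nod2 have a peak in the 2 WT rows only, and the Nlrp3 peaks of the 2 IL-4 rows lie over the second start while that of WT untreated lies over the first.

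With IL-4 in WT macrophages, every one of the 10 genes had at least 1 untreated peak without a counterpart, and only Nlrp3 had a new one. Here lost means that an untreated (or WT) peak shared no base with any peak of the IL-4 (or KO) list, and gained means the reverse. Tlr2, Tlr7 and Nod1 went to 0 peaks within 10 kb, from 2, 1 and 1. All 10 genes had fewer peaks, against 28.9% of all genes and 51.6% of those with a WT untreated peak. Tlr9 and Aim2 had no start peak left, 2 of the 7 genes with one, against 29.3% of all genes with one. The start peaks of Tlr4, Myd88, Nod2 and Cgas had a partner, and that of Nlrp3 had none but another lay over the second start. Of the 28 WT untreated peaks 17 were lost, 60.7% (exact Clopper-Pearson 95% interval 40.6 to 78.5, for counting error only), and 1 of 12 WT IL-4 peaks was gained. Over the whole lists the shares were 47.7% lost and 10.3% gained. The 10 genes' WT untreated peaks were of low score, at a median percentile of 28.2. For all peaks of like score decile the mean share lost was 56.4%, and for the WT IL-4 peaks the mean share gained was 10.6%. The interval treats the peaks as independent, though several lie at the same gene, so it was not used as a test. Of all genes with a WT untreated peak, 52.6% had a lost one, and 4.41% of all genes had a gained one. The scores of the 17 lost peaks ran from 50.8 to 122, the highest being that past the far end of Cgas. Genes with several peaks have more chances to lose 1, and 8 of the 10 had 2 or more in WT untreated, against 24.8% of all genes.

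In KO macrophages IL-4 came with lost peaks at 6 of the 8 genes that had any, namely Tlr2, Tlr7, Tlr9, Myd88, Nod2 and Aim2. The background was 41.5% of genes with a KO untreated peak. Tlr7 and Tlr9 went from 1 peak to 0. Aim2 went from 7 to 2, the largest fall in number, and Nlrp3 from 0 to 1, the gain at its second start. Tlr4 kept 2 peaks and Cgas 1. In all 11 of 20 peaks were lost (55.0%, interval 31.5 to 76.9) and 1 of 10 gained. The whole lists gave 37.7% and 18.1%, and peaks of like score 52.9% lost and 18.2% gained. A gained peak was found for 1 of the 10 genes and for 7.95% of all genes. The same 6 genes had fewer peaks, against 19.4% of all genes and 37.6% of those with a KO untreated peak, and Nlrp3 had more, against 5.57%. The start peak of Tlr2 was lost, 1 of 4 against 22.7%, and those of Tlr4, Myd88 and Aim2 had a partner. A start peak at Nlrp3 was gained, as for 2.09% of all genes.

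Between the untreated libraries, the KO list lacked the start peaks that WT had at Tlr9, Nlrp3, Nod2 and Cgas, and had one at Tlr2 that WT lacked. These are 4 of the 7 genes with a WT untreated start peak, against 15% of all genes with one. For all genes, 2.4% had a start peak in KO and not in WT. By score, the 4 lost start peaks ran from 62.5 (Nlrp3) to 171 (Cgas), and the 15% is not matched for score. In the same score deciles, the share of WT untreated peaks without overlap in KO untreated was 66.4% for Nlrp3 and 56.8% for Tlr9. It was 24.7% for Nod2 and 4.27% for Cgas. Counting all peaks within 10 kb, 11 of 28 were lost in KO (39.3%, interval 21.5 to 59.4) and 3 of 20 gained. The whole lists gave 32.1% and 15.4%, and peaks of like score 40.5% lost and 25.3% gained. A lost peak was found at 7 genes, Tlr4, Tlr7, Tlr9, Nlrp3, Nod1, Nod2 and Cgas (background 37%), and a gained one at Tlr2, Tlr7 and Aim2 (9.27%). The Tlr7 pair are the neighbouring peaks without a shared base. By number of peaks, 6 genes had fewer in KO, against 19.3% of all genes and 34.4% of those with a WT untreated peak, and Tlr2 and Aim2 had more, against 6.44%.

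With IL-4 in both genotypes, the KO list lacked the start peaks of Nod2 and Cgas and had one at Aim2 that WT IL-4 lacked. Start peaks lost in KO were thus 2 of 5, with 15.4% over all genes that had one in WT IL-4. A start peak in KO IL-4 and not in WT IL-4 was found for 5.35% of all genes. Of the 12 WT IL-4 peaks 5 were lost (41.7%, interval 15.2 to 72.3), at Tlr9, Nod2, Cgas and Aim2. Gained peaks numbered 3 of 10 in KO IL-4, at Tlr2, Cgas and Aim2. The whole lists gave 26.1% and 29.5%, and the mean for peaks of like score was 26.3% for the losses and 28.8% for the gains. Over all genes 27.6% of those with a WT IL-4 peak had a lost one and 13.9% had a gained one. Tlr9 and Nod2 had fewer peaks in KO IL-4, against 9.85% of all genes and 22.7% of those with a WT IL-4 peak, and Tlr2 had more, against 11.8%. The 2 treatment comparisons and the 2 genotype comparisons use the same 4 libraries, so their counts are not independent.

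**Figure D4:**
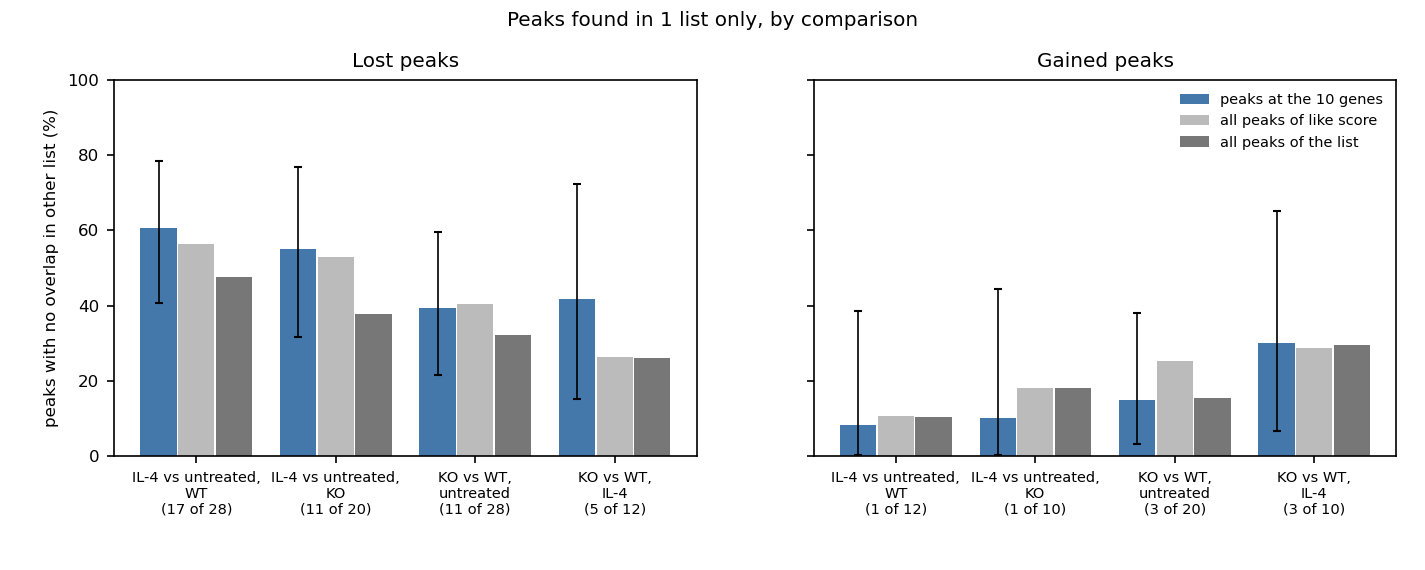
Share of peaks with no overlap in the other list (y axis, percent) for lost peaks (left) and gained peaks (right) in the 4 comparisons on the x axis, with the counts at the 10 genes in parentheses. Blue bars are peaks at the 10 genes, with exact 95% intervals for counting error that treat peaks of the same gene as independent. Light grey bars are the mean over all peaks of the same score deciles, and dark grey bars are all peaks of the list.

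Some start peaks rested on low scores, and list length decided part of the counts. With each list cut to its 9930 highest-scoring peaks, the WT untreated start peaks of Tlr9 and Nlrp3 and the KO untreated one of Tlr2 were no longer included, leaving 5, 5, 3 and 4 of the 10 genes. Cgas and Nod2 still had a start peak in both WT lists and in neither KO list. With scores of 100 or more, Cgas kept that pattern, and Nod2 had a start peak in WT untreated only. That cutoff is the same for every list and kept 50.7%, 38.9%, 46.5% and 40.0% of their peaks, so it is not a like cut. At equal list lengths IL-4 in WT came with 3 losses and 3 gains, and in KO with 4 and 4. Lists of equal length have similar losses and gains over all peaks by construction, so no conclusion about the 10 genes is drawn from this. Only Tlr2 and Cgas then had fewer peaks with IL-4 in WT, and Tlr9 and Nlrp3 had more.

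Looking out to 50 kb added 18 regions, and 5 of them had a peak in all 4 libraries. One of these is the region at -21266 bp from the Tlr2 start. The others covered ends of neighbouring genes: Oxsr1 beside Myd88, Ggct beside Nod1, Snx20 beside Nod2 and Eef1a1 beside Cgas. With them, 10, 9, 9 and 9 of the 10 genes had a peak, against 71.9%, 62.8%, 68.9% and 63.9% of all genes. A region at -43469 bp from the Tlr2 start had peaks in WT untreated (81.0), WT IL-4 (89.0) and KO IL-4 (64.8) and lay 12574 bp from Tmem131l. Around Tlr9, 6 further regions had differing patterns, of which an end of Alas1 was covered in the 2 KO lists only (107 untreated, 65.7 with IL-4). Tlr4, Tlr7 and Aim2 had no peak between 10 and 50 kb.

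The other genes of these pathways lost start peaks with IL-4 in WT as well. The 77 genes of 7 lists held 116, 55, 95 and 61 peaks within 10 kb. With IL-4 in WT, 40 of the 63 with an untreated peak had fewer, against 51.6% of all genes with one, and 3 of the 77 had more, against 2.39% of all genes. In KO 31 of 61 had fewer (37.6%) and 3 more (5.57%). For KO against WT, 21 of 63 had fewer (34.4%) and 9 more (6.44%) untreated, and 12 of 43 fewer (22.7%) and 16 more (11.8%) with IL-4. Start peaks were found at 43, 26, 40 and 30 of the 77, with either span end counted where no start is listed. In WT 19 of the 43 were lost with IL-4, against 29.3% of all genes with one, and 2 were gained, against 1.1%. In KO 12 of 40 were lost (22.7%) and 2 gained (2.09%). For KO against WT, 8 of 43 were lost (15%) and 5 gained (2.4%) untreated. With IL-4, 6 of 26 were lost (15.4%) and 10 gained (5.35%). These shares over all genes are not matched for score.

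A start peak in all 4 libraries was found at 20 of the 49 genes with one in any, and at 2 of 8 of the members, against 54.9% of all genes. Among the 20 were the kinases Map3k7, Ripk2 and Tbk1, the ubiquitin ligases Traf6 and Xiap and the adaptors Ticam1 and Mavs. The kinase Irak4 was also among them, but its peaks lay nearer to an end of Pus7l in each list. Irak1, Irak3 and Ikbke had no start peak in any list. The inflammasome list of 18 genes had start peaks at 9, 4, 8 and 7. Those lost with IL-4 in WT were Casp1, Casp4, Nlrc4, Nlrp1b and Nlrc5. Casp1, the inflammasome protease, scored 173 at its start in WT untreated (percentile 76.1). In KO it scored 57.8 untreated (13.6) and 63.4 with IL-4 (24.4). The RNA sensing list of 5 had 4, 1, 3 and 1, with Ifih1, Dhx58 and Trim25 lost in WT. Their WT untreated peaks scored 61.3, 59.4 and 88.6. In the same score deciles, 81.6%, 81.6% and 62.1% of WT untreated peaks had no overlap in WT IL-4. Ripk2, Nlrc5 and Dhx58 have no listed start, so a peak at either span end was counted for them. The other lists had start peaks at 7, 3, 5 and 4 of 13 (other Toll-like receptors and co-receptors), 9, 8, 10 and 7 of 14 (Toll adaptors and kinases), 7, 5, 6 and 6 of 8 (NOD signalling), 6, 5, 6 and 4 of 13 (DNA sensing) and 1, 0, 2 and 1 of 6 (C-type lectin receptors). Start peaks lost with IL-4 in WT thus numbered 4 of 7, 3 of 9, 5 of 9, 2 of 7, 1 of 6, 3 of 4 and 1 of 1 over the Toll-like receptor, Toll adaptor, inflammasome, NOD, DNA sensing, RNA sensing and C-type lectin lists, beside the 29.3% of all genes. Ly96, the co-receptor of Tlr4, had a peak at a span end in WT untreated (142, percentile 67.8) and KO IL-4 (68.5, percentile 31.2) only. Tirap, which bridges Tlr2 and Tlr4 to Myd88, had a start peak in WT IL-4 (90.3) and KO untreated (59.2) only, as did Tab2 (63.7 and 90.1). Start peaks in exactly WT untreated and KO IL-4 were found for 0.832% of all genes, and in exactly WT IL-4 and KO untreated for 0.352%.

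**Figure D5:**
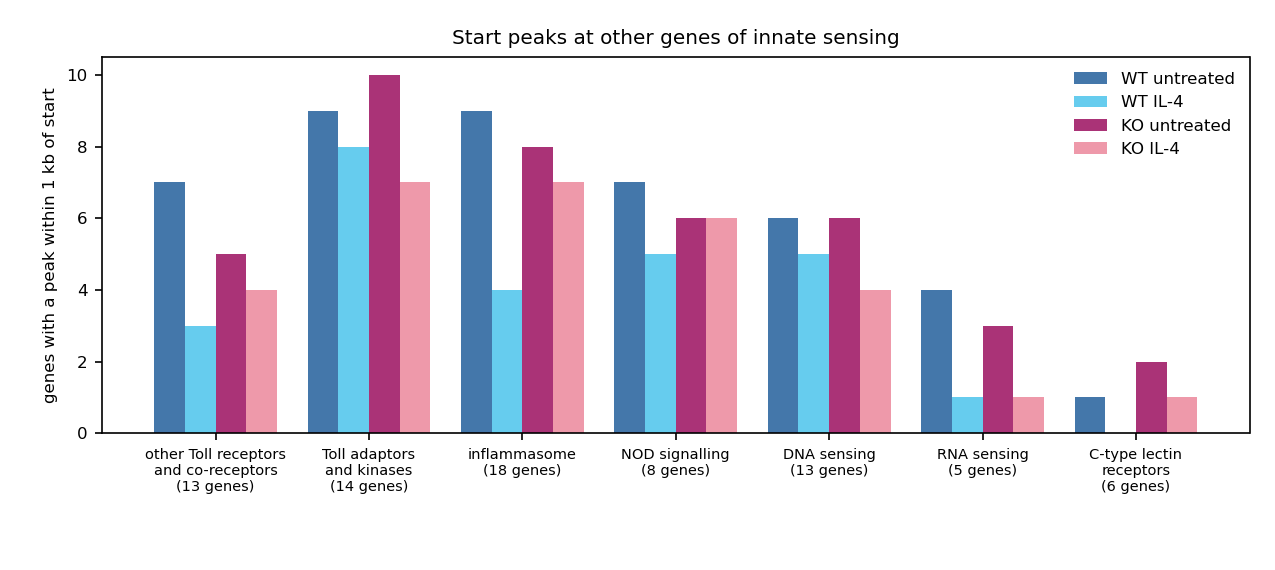
Number of genes with a peak within 1 kb of the start (y axis) in each of 7 lists of other innate sensing genes (x axis, with the number of genes in each) in the 4 libraries (bars). Lists differ in size; in the inflammasome list 9 genes have one in WT untreated and 4 in WT IL-4, and 8 and 7 in the KO libraries.

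The genes of those lists with the highest-scoring lost or gained peaks differed between comparisons. With IL-4 in WT the highest lost peaks were near Tbk1 (229), at Casp1 (173) and at Tollip (158.5), an inhibitor of Toll signalling, and the gained ones at Tirap (90.3), Tab2 (63.7) and inside Tlr6 (52.0). In KO those lost with IL-4 were near Irak3 (109) and Traf3 (105) and at Card9 (101), though Card9 had another start peak in KO IL-4. Those gained were at Ly96 (68.5), inside Nek7 (65.2) and near Tlr13 (59.5). In untreated KO against WT the lost ones were at Ly96 (142), near Tlr13 (132) and at Nlrc4 (112). The gained ones were near Hsp90b1 (113) and a single peak of 90.5 at Naip2 that also lay within 10 kb of Naip5. With IL-4 the KO list lacked peaks near Syk (95.6) and at Tirap (90.3) and Ifi204 (84.5). It had peaks that WT IL-4 lacked at Nlrp1b (130), inside Mefv (119) and at Birc3 (98.7).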

How the data were processed

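Each of the 4 deposited files lists 1 library's peaks by position and score. Per the submitters' processing notes, HOMER, MACS 1.4.2, Bowtie2 2.2.5 and the build mm10 were used; roles, parameters and read depth are not given in the sources used here. The deposited score has no stated unit. Scores were used only within a list, and no p-value was computed. BED starts were converted to count from 1.

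Peaks overlapped when they shared 1 bp or more. Regions were merged over the 4 lists. Gene spans and starts came from RefSeq tables (GRCm38.p6). Exons and introns were not separated. Starts were taken as either span end where none was listed. Like-score shares were taken over 10 score deciles of each list. The 77 pathway genes were matched by symbol or older symbol. Genes were named by a rule: the 10 members, up to 3 lost and 3 gained pathway genes per comparison with the highest score, and genes whose end lay nearer to a member peak. Pathway genes named for their start peaks, and the neighbours named beyond 10 kb, are examples chosen after their values were seen. Members and lists were chosen with earlier results of these data known.

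Alternatives were 50% reciprocal overlap, scores of at least 100, lists cut to their 9930 top peaks, 50 kb, no peak within 500 bp and starts within 2.5 kb. Overlap counting was tested on simulated data. SciPy 1.17.1 gave the intervals, Matplotlib 3.10.9 the plots, and pandas 2.3.3 with NumPy 2.4.6 under Python 3.11.15 the counts.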

Additional observations from a re-analysis of the deposited data

Results flagged for a closer look

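The number of Nlrp3 peaks within 10 kb moved in opposite directions with IL-4 in the 2 genotypes. It changed by -1 in WT, from 2 to 1, and by 1 in KO, from 0 to 1. The difference was not tested, because each group has 1 library. With all lists cut to 9930 peaks it was 0 to 1 in both genotypes, so the opposite directions were not seen there. All of these peaks had scores of 65 or less.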

How the results depend on the processing

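Counts of peaks and genes are given below in the order WT untreated, WT IL-4, KO untreated, KO IL-4. No paired analysis was possible because each group has 1 library and the labels give no replicate numbers. Requiring 50% reciprocal overlap, or no peak within 500 bp, left all 8 counts of lost and gained peaks within 1.5 times their value, and starts within 2.5 kb did so for all 4 counts of start peaks. With scores of 100 or more the peaks numbered 11, 3, 4 and 4, and genes with a start peak numbered 5, 2, 2 and 2. Losses then numbered 8 (WT, IL-4), 1 (KO, IL-4), 7 (KO against WT, untreated) and 1 (KO against WT, IL-4). Gains numbered 0 with IL-4 in WT and 0 for KO against WT untreated. Both lists were cut at 100 first, so a peak whose partner scored below 100 also counted as lost or gained. Among the losses with IL-4 in WT was the Tlr4 span-end peak, at 237 untreated and 98.4 with IL-4. The cutoff kept 50.7%, 38.9%, 46.5% and 40.0% of the lists, so it is not a like cut. Whole-list shares of lost and gained peaks were not computed at this setting. At equal list lengths the untreated lists had 12 (WT) and 10 (KO) peaks. IL-4 came with 3 losses and 3 gains in WT and 4 and 4 in KO. Untreated KO against WT had 6 losses of 12 peaks, where the full lists had 11 of 28, and 4 gains. Equal lengths make losses and gains similar over all peaks by construction, but do not fix the counts at the 10 genes. Within 50 kb the peaks numbered 39, 20, 34 and 20. IL-4 then came with 2 gains in WT and with 18 losses and 4 gains in KO, and KO against WT had 8 gains untreated and 6 with IL-4. The wider window takes in more genes' peaks. Depth is unknown, so weak peaks limit each count.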
